A study of Mus musculus with 5 samples.

Results

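The Wnt ligands, their receptors, their secreted inhibitors and the genes that report or dampen the pathway were examined in GFP-sorted lung cells of P6 mice. Genes were taken by symbol from the deposited count table: every numbered member of the Wnt, Fzd, Sfrp, Dkk, Rspo and Lgr families, together with Lrp5, Lrp6, Axin2, Lef1, Tcf7, Nkd1, Nkd2, Wif1, Notum, Znrf3 and Rnf43. This gave 55 of the 23478 genes in the table, of which 47 had enough counts to be tested. The rule used names only and no measured value.

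The 5 RNA-Seq libraries came from mice on a mixed background of both sexes that carried Gli1-CreERT2, a tamoxifen-dependent Cre, and a Cre-switched eGFP reporter at Rosa26. Tamoxifen in corn oil was injected i.p. at 100 µg per pup at P0 and at P1. The 2 control libraries had 1 floxed and 1 wild-type allele of Igf1r, which encodes the insulin-like growth factor 1 receptor, and the 3 Igf1r-deleted libraries, labelled Mutant, had both alleles floxed. Control cells can therefore also lose 1 copy of Igf1r, and no library came from cells without Cre. The number of pups and their sex behind each library are not given in the sources used here, so p-values measure only the spread between these libraries, which may be technical.

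Wnt proteins are lipid-modified secreted signals that bind frizzled receptors. With the co-receptors LRP5 or LRP6 they stabilise β-catenin, which acts with LEF and TCF factors on target genes, and through other co-receptors they act on cell polarity and movement without β-catenin. R-spondins, read by LGR receptors, keep frizzleds on the surface by removing the ubiquitin ligases ZNRF3 and RNF43. SFRP proteins and WIF1 bind Wnts outside the cell, DKK1, DKK2 and DKK4 act on LRP5 and LRP6, and NOTUM removes the lipid from Wnts. In the developing lung, mesenchymal Wnt2 and Wnt2b are needed for the specification of lung endoderm, and Wnt5a takes part in distal lung and alveolar development.

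Library totals were 35116766 to 37597857 counts, and TMM factors, which correct for library composition, were 0.961 to 1.06. Levels are given as CPM, library-size-scaled counts after this correction, and as CPM per kilobase of exon where genes are compared with each other. The targeted gene, Igf1r (mm10, chr7:67952827-68233668, plus strand), stood at 324 and 324 CPM in control replicates 1 and 2, and at 140, 177 and 194 CPM in Igf1r-deleted replicates 1, 2 and 3, so the groups were well apart. Its log2 fold change, Igf1r-deleted over control, was −0.93 (SE 0.14), with an adjusted p of 0.354 in edgeR's quasi-likelihood test (Benjamini-Hochberg). Over the processing alternatives this adjusted p ranged from 1.06e-05 with DESeq2 to 0.404. The sorted cells carried fibroblast markers: the summed level of 9 myofibroblast genes was 4186 to 4389 CPM in controls and 4334 to 4946 CPM in Igf1r-deleted libraries, and that of 5 lipofibroblast genes was 1743 to 2266 and 1375 to 1585 CPM. Other cell types were also present, with summed levels of 983 to 1045 and 467 to 1062 CPM for 9 epithelial genes, 455 to 466 and 234 to 655 CPM for 7 endothelial genes, 297 to 304 and 214 to 297 CPM for 5 mesothelial genes, and 329 to 471 and 180 to 394 CPM for 7 hematopoietic genes, while 4 hemoglobin genes were at 0 in some libraries. The sum of 9 dissociation-response genes was higher in both controls (15479 to 17651 CPM) than in every Igf1r-deleted library (11066 to 12855 CPM). In sorted bulk RNA, fewer cells of a type and less RNA per cell cannot be told apart.

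The sorted cells held transcripts of every branch of the pathway. Dkk3, a divergent member of the DKK family, had the highest level, 279 CPM per kb on average over the 5 libraries, followed by Fzd1 (133 CPM per kb), Wnt2 (111 CPM per kb), Fzd7 (63.4 CPM per kb), Wnt5a (61.0 CPM per kb) and Fzd2 (52.8 CPM per kb). In all, 35 of the 55 genes averaged 1 CPM per kb or more, 22 averaged 10 or more, and 9 were at 0.1 or below. The 8 genes with too few counts to test were Wnt3, Wnt8a, Wnt8b, Wnt9b, Wnt10a, Wnt16, Dkk1 and Dkk4, with 0 to 16 counts in a library, where a count of 0 allows up to 3 counts, or 0.0754 to 0.0864 CPM, from counting error alone. Wnt2 made up 44.3% and 51.2% of the summed ligand level per kb in the controls and 50.4%, 41.7% and 42.6% in the Igf1r-deleted libraries, so it led the ligands in every library. Wnt5a came next, with 24.7% and 21.3% in controls and 23.5%, 26.3% and 29.2% in Igf1r-deleted libraries.

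**Figure D1:**
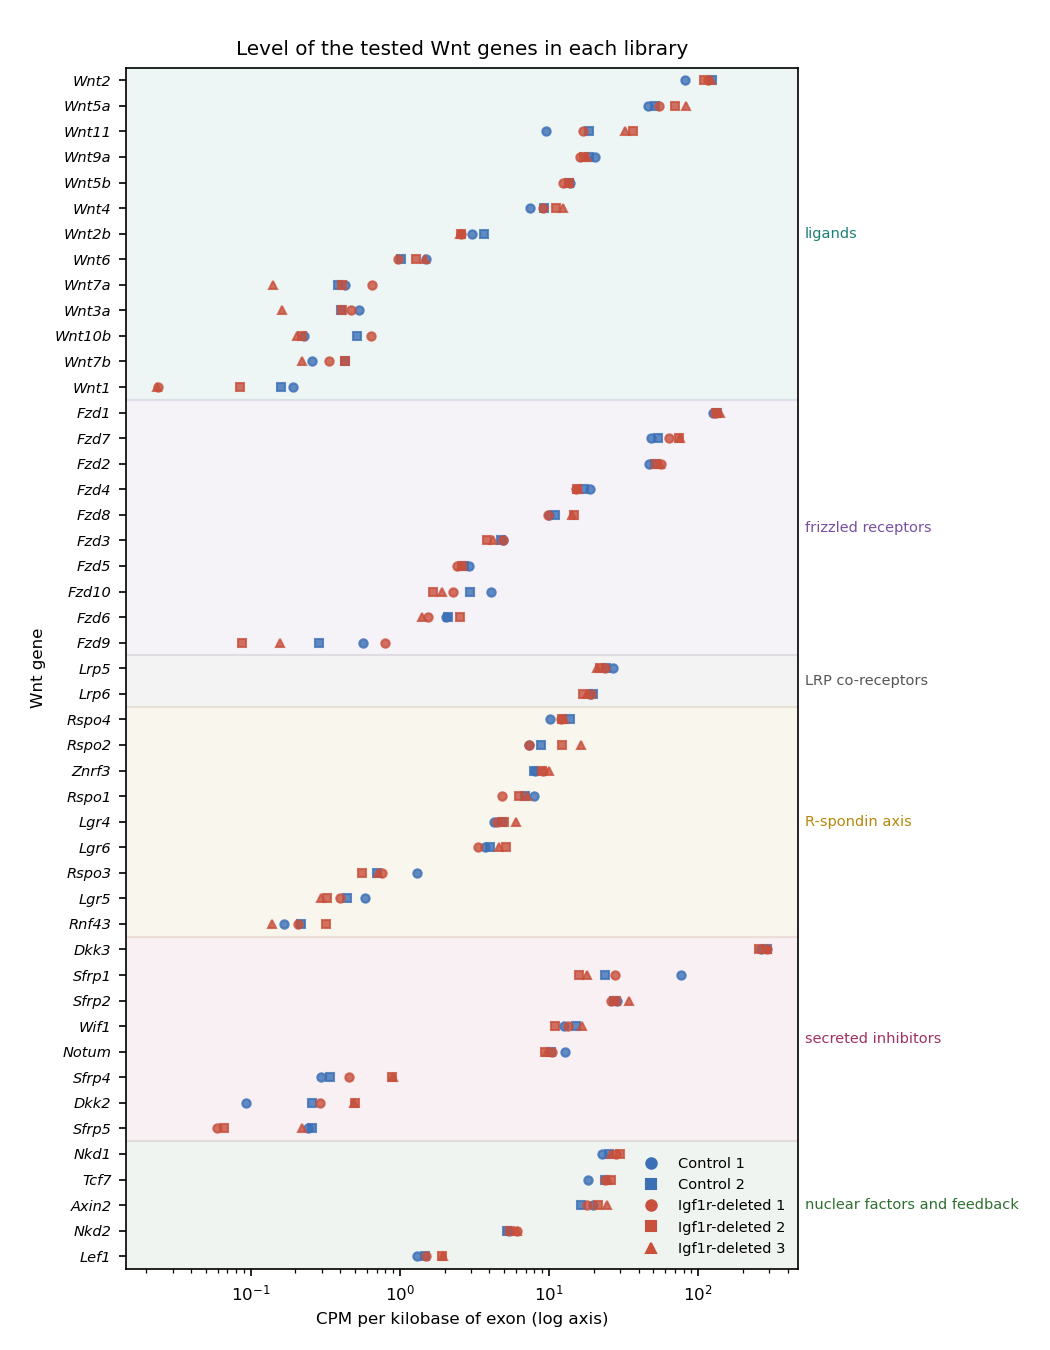
Level of the genes in CPM per kilobase of exon over the 5 libraries, on a log axis, grouped by role. By the mean over the libraries, Dkk3 (279), Fzd1 (133) and Wnt2 (111) lead, and most of the genes at the low end are ligands.

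No gene of the pathway passed an adjusted p of 0.05 by the quasi-likelihood test of edgeR after Benjamini-Hochberg correction (0 of 47, adjusted p 0.354 to 0.999), as was the case for all genes tested (0%). At an unadjusted p under 0.05 there were 12 of 47 (25.5%), beside 12.4% of the 15298 genes tested. Of the 12, 7 were higher in Igf1r-deleted libraries (background 5.65%) and 5 lower (background 6.75%), and with scaling to library totals the split was 9 and 3. DESeq2's Wald test called 2 of them after adjustment, Fzd7 and Fzd10, beside 1.31% of all genes, and limma voom called 0. A fit with the replicate number as a block called 1, Wnt11, beside 0.889% of all genes, though no source ties these numbers to a litter or batch. The 3 Igf1r-deleted values lay wholly on one side of the 2 control values for 18 of 47 genes (38.3%, beside 31.0% of all genes tested), 9 higher (background 16.0%) and 9 lower (background 14.9%). A permutation of 2 against 3 libraries cannot give a p below 0.1. The median log2 fold change of the 47 genes was −0.018, and 0.01 over all genes.

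The count of 12 depended on single libraries. It was 18 without Igf1r-deleted replicate 1, 5 without replicate 2 and 4 without replicate 3. The count over all genes moved the same way, from 1897 of 15298 to 3183 of 15138, 993 of 15100 and 1113 of 15153. A fit without a control leaves 1 library in that group, so its count is not given. Fzd7, Fzd10 and Sfrp4 stayed at an unadjusted p under 0.05 in each fit without an Igf1r-deleted library and under every alternative processing. Of the controls, replicate 1 was the more distant from the mean of the Igf1r-deleted libraries in 10 of the 12 genes (83.3%), beside 85.6% of all genes at an unadjusted p under 0.05 and 66.7% of all genes tested. Igf1r-deleted replicate 1 was the nearest of its group to the controls in 9 of the 12 (75.0%), beside 65.7% of all genes at that threshold and 47.0% of all genes tested. Among the 9 myofibroblast genes, control replicate 1 was the lowest library for 5 (Acta2, Tagln, Myh11, Tgfbi and Fgf18) and the highest for 4 (Pdgfra, Hhip, Enpp2 and Aspn). Among the 5 lipofibroblast genes it was the highest for 3 (Plin2, Tcf21 and Fgf10) and the lowest for 1 (Lpl). The part of these differences in the results was not tested.

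**Figure D2:**
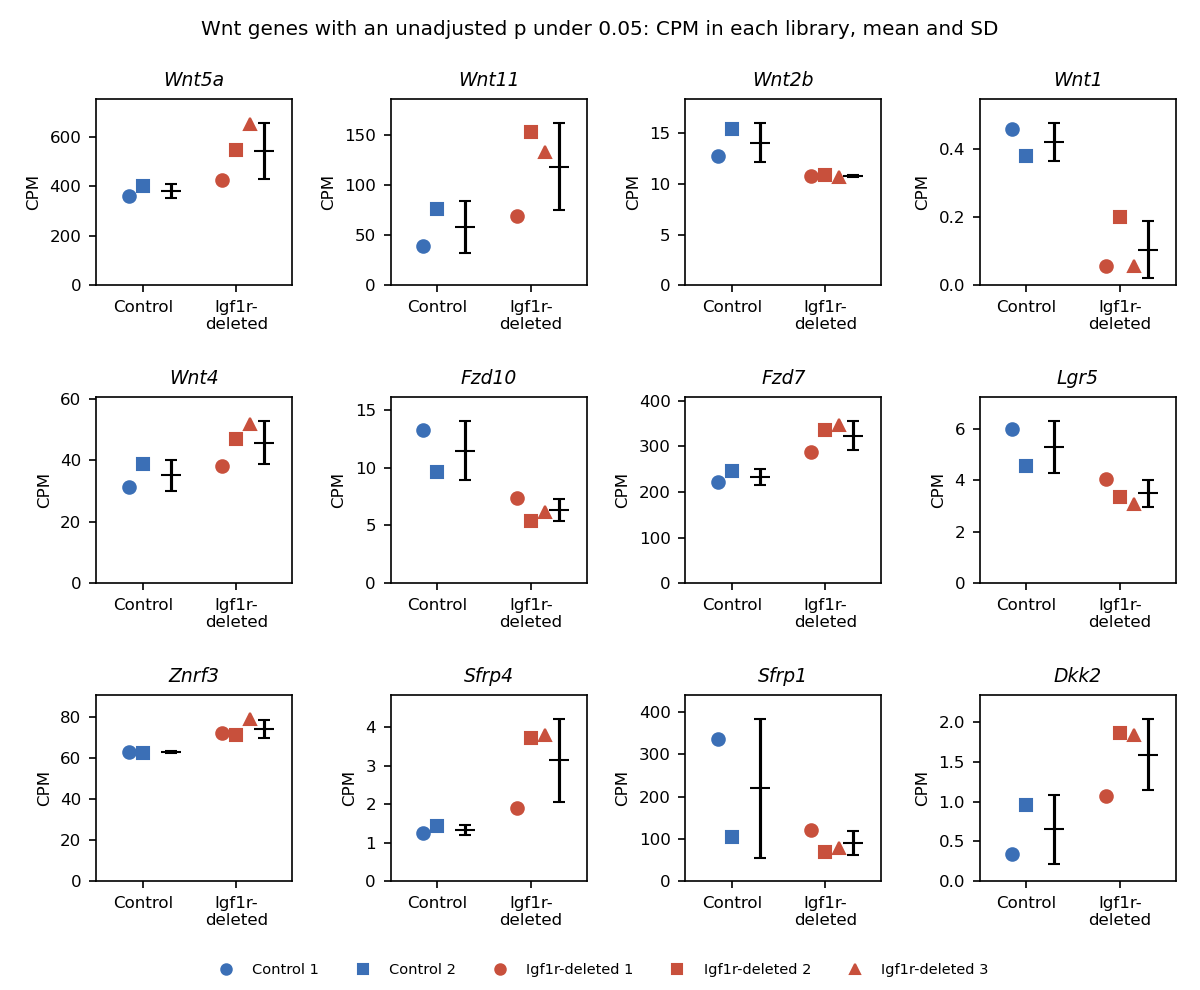
Level in CPM of the 12 genes with an unadjusted p under 0.05 in each of the 2 control and 3 Igf1r-deleted libraries, one panel per gene, each with its own axis from 0; points are libraries and lines are group means. Fzd7, Wnt5a, Sfrp4, Dkk2 and Znrf3 have all Igf1r-deleted points above both controls, Fzd10, Wnt2b, Wnt1 and Lgr5 have all below, and Wnt11, Wnt4 and Sfrp1 overlap.

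Among the ligands, 13 of 19 were tested. At an unadjusted p under 0.05, 3 were higher and 2 lower, beside 5.65% and 6.75% of all genes tested. Wnt5a, the best known ligand of the β-catenin-independent branch (chr14:28504750-28527448, plus strand), was measured at 360 and 401 CPM in controls and at 426, 545 and 653 CPM in Igf1r-deleted libraries. All 3 Igf1r-deleted values were above both controls, with means of 381 ± 29.3 (SD, n = 2) and 541 ± 114 CPM (SD, n = 3). This was a log2 fold change of 0.51 (SE 0.18, unadjusted p = 0.0259 and adjusted p = 0.364 by edgeR). For Wnt5a it was 0.35 without Igf1r-deleted replicate 3 and 0.65 without Igf1r-deleted replicate 1. Its unadjusted p by edgeR was not under 0.05 without Igf1r-deleted replicate 2 or without replicate 3. Wnt11, which also acts mainly without β-catenin (chr7:98835112-98855195, plus strand), was measured at 39.7 and 76.4 CPM in controls and at 69.6, 153 and 133 CPM in Igf1r-deleted libraries. Its control replicate 2 lay above Igf1r-deleted replicate 1, so the groups overlapped, while Igf1r-deleted replicates 2 and 3 stood above all others. Wnt11 had a log2 fold change of 1.03 (SE 0.38, unadjusted p = 0.0289), with 0.63 without control replicate 1 and 1.57 without control replicate 2. Within the ligands, the share of Wnt11 was 5.15% and 7.65% in controls and 7.27%, 14% and 11.3% in Igf1r-deleted libraries. An annotated gene on the other strand, Gm8398, overlaps 8.8% of the exonic bases of Wnt11, and the use of strand in counting is not given in the sources used here.

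The 250 bases before the start of Wnt11, Fzd7 and Axin2 are shown because Wnt11 and Fzd7 had the highest log2 fold changes of the ligands and frizzleds tested and Axin2 is the usual reporter of β-catenin signaling. They are RefSeq's on GRCm38.p6, 5′ to 3′ on the plus strand, at chr7:98834862-98835111, chr1:59481897-59482146 and chr11:108920099-108920348. Capitals mark the TCF/LEF motif CTTTGAT, searched on both strands.
Wnt11: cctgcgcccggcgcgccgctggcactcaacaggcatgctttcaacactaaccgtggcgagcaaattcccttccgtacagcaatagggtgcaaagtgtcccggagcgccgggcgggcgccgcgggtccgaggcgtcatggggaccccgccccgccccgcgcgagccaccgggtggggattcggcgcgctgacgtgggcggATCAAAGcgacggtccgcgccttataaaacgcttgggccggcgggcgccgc
Fzd7: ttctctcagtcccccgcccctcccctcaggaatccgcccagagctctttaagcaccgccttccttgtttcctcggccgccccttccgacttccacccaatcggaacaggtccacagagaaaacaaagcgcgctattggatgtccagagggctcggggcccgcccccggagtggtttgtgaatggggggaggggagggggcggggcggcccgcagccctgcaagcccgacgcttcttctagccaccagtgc
Axin2: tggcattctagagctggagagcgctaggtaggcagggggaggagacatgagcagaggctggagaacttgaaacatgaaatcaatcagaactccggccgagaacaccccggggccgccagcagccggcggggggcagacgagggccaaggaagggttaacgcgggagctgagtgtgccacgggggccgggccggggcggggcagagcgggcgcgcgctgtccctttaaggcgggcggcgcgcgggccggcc
Wnt11 held the motif once, read from the opposite strand, at chr7:98835061-98835067, and neither of the others held it in these windows. Wnt11 has another RefSeq start, and the 250 bases before it, at chr7:98838595-98838844, did not hold the motif. RefSeq promoter windows, which reach from 250 bases before to 50 bases after a start, were found for 36 of the 55 genes. CTTTGAT was in 2 of the 36 (5.56%), Wnt11 and Wnt5b, beside 4.29% of all genes and 3.73% of all windows. The TEAD motif GGAATG was in Lgr4 and Wnt5b (5.56%, beside 16.6% of all genes) and the FOXO motif GTAAACA in Tcf7 (2.78%, beside 4.05% of all genes). The motifs do not share letters at any of these matches, and a match describes letters and no binding.

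Wnt4, a ligand that can use either branch, was measured at 31.4 and 38.7 CPM in controls and at 38.1, 47.0 and 51.9 CPM in Igf1r-deleted libraries, with Igf1r-deleted replicate 1 just below control replicate 2. Its log2 fold change was 0.38 (SE 0.16, unadjusted p = 0.0459) and 0.23 without control replicate 1. Wnt2b, a β-catenin ligand of lung mesenchyme and mesothelium, was lower, at 12.7 and 15.4 CPM in controls and 10.7, 10.9 and 10.7 CPM in Igf1r-deleted libraries. The 3 Igf1r-deleted values were nearly the same and below both controls. Its log2 fold change was −0.39 (SE 0.14, unadjusted p = 0.0295) and −0.25 without control replicate 2. The summed mesothelial genes given above were also below both controls in all 3 Igf1r-deleted libraries, by a small margin in replicate 3. Of these 5 genes, 4 were lower and 1 higher, with 0 at an unadjusted p under 0.05 by edgeR. In replicate 3, Msln and Lrrn4 stood above both controls. Their part in the Wnt2b values was not tested. Wnt1, the founding member of the family, was close to the detection floor, with 16 and 14 counts in controls and 2, 8 and 2 counts in Igf1r-deleted libraries. The ratio of its summed counts, scaled to library size, was 0.257 (95% exact interval of counting error 0.120 to 0.517), with an unadjusted p of 0.0324 in edgeR.

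Wnt2, the most abundant ligand, was measured at 186 and 279 CPM in controls and at 263, 249 and 275 CPM in Igf1r-deleted libraries. The groups overlapped, since control replicate 2 was the highest library and control replicate 1 the lowest. Its log2 fold change of 0.18 (SE 0.17, unadjusted p = 0.334) turned to −0.092 without control replicate 1. The other 7 ligands tested, Wnt3a, Wnt5b, Wnt6, Wnt7a, Wnt7b, Wnt9a and Wnt10b, had log2 fold changes of −0.43 to −0.02. Of the 13 ligands, 4 were higher and 9 lower in Igf1r-deleted libraries, and 8 higher and 5 lower with scaling to library totals. The summed ligand level was 186 and 241 CPM per kb in controls and 232, 265 and 286 CPM per kb in Igf1r-deleted libraries, where replicate 1 lay below control replicate 2.

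All 10 frizzled receptors were tested. At an unadjusted p under 0.05, 1 was higher and 1 lower, beside 5.65% and 6.75% of all genes tested. Fzd7 (chr1:59482424-59486955, plus strand), a frizzled of stem and mesenchymal cells, was measured at 221 and 246 CPM in controls and at 288, 336 and 346 CPM in Igf1r-deleted libraries. Every Igf1r-deleted library was above both controls, with means of 234 ± 17.5 (SD, n = 2) and 323 ± 31.3 CPM (SD, n = 3). For Fzd7 the log2 fold change was 0.47 (SE 0.12, unadjusted p = 0.00562 and adjusted p = 0.354 by edgeR), and 0.39 to 0.54 when each library was left out. DESeq2 gave Fzd7 an adjusted p of 0.0374, the lowest of the alternatives, whose range was 0.0374 to 0.404. Of the summed frizzled level, Fzd7 took 18.5% and 19.3% in controls and 21.9%, 24.7% and 24.4% in Igf1r-deleted libraries.

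Fzd10 (chr5:128600844-128604093, plus strand), a receptor of low level here, was measured at 13.3 and 9.66 CPM in controls and at 7.37, 5.41 and 6.21 CPM in Igf1r-deleted libraries. All Igf1r-deleted values were below both controls, with means of 11.5 ± 2.56 (SD, n = 2) and 6.33 ± 0.986 CPM (SD, n = 3). For Fzd10 the log2 fold change was −0.86 (SE 0.21, unadjusted p = 0.00443 and adjusted p = 0.354 by edgeR), and −1.08 to −0.62 when each library was left out. DESeq2 gave Fzd10 an adjusted p of 0.0373, and the alternatives ranged from 0.0373 to 0.404. The most abundant frizzled, Fzd1, was at 526 and 560 CPM in controls and 559, 555 and 590 CPM in Igf1r-deleted libraries, which overlapped, with a log2 fold change of 0.07 (SE 0.10), or 0.02 without control replicate 1. Fzd2 was at 172 and 190 CPM in controls and 208, 192 and 205 CPM in Igf1r-deleted libraries, all above the controls by a small margin, with a log2 fold change of 0.16 (SE 0.10, unadjusted p = 0.152), or 0.083 without control replicate 1. Fzd4, the receptor of Norrin in vessels, lay just outside the threshold with a log2 fold change of −0.22 (unadjusted p = 0.0503). The other 5, Fzd3, Fzd5, Fzd6, Fzd8 and Fzd9, had log2 fold changes of −0.31 to 0.30, so 4 frizzleds were higher and 6 lower under each scaling.

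Both LRP co-receptors had log2 fold changes just below 0. Lrp5 was measured at 263 and 235 CPM in controls and at 232, 216 and 204 CPM in Igf1r-deleted libraries, without overlap. For Lrp5 the log2 fold change was −0.19 (SE 0.11, unadjusted p = 0.107), or −0.12 without control replicate 1. Lrp6 was measured at 259 and 272 CPM in controls and at 262, 232 and 245 CPM in Igf1r-deleted libraries, with overlap and a log2 fold change of −0.11 (SE 0.10, unadjusted p = 0.317), or −0.072 without Igf1r-deleted replicate 2.

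**Figure D3:**
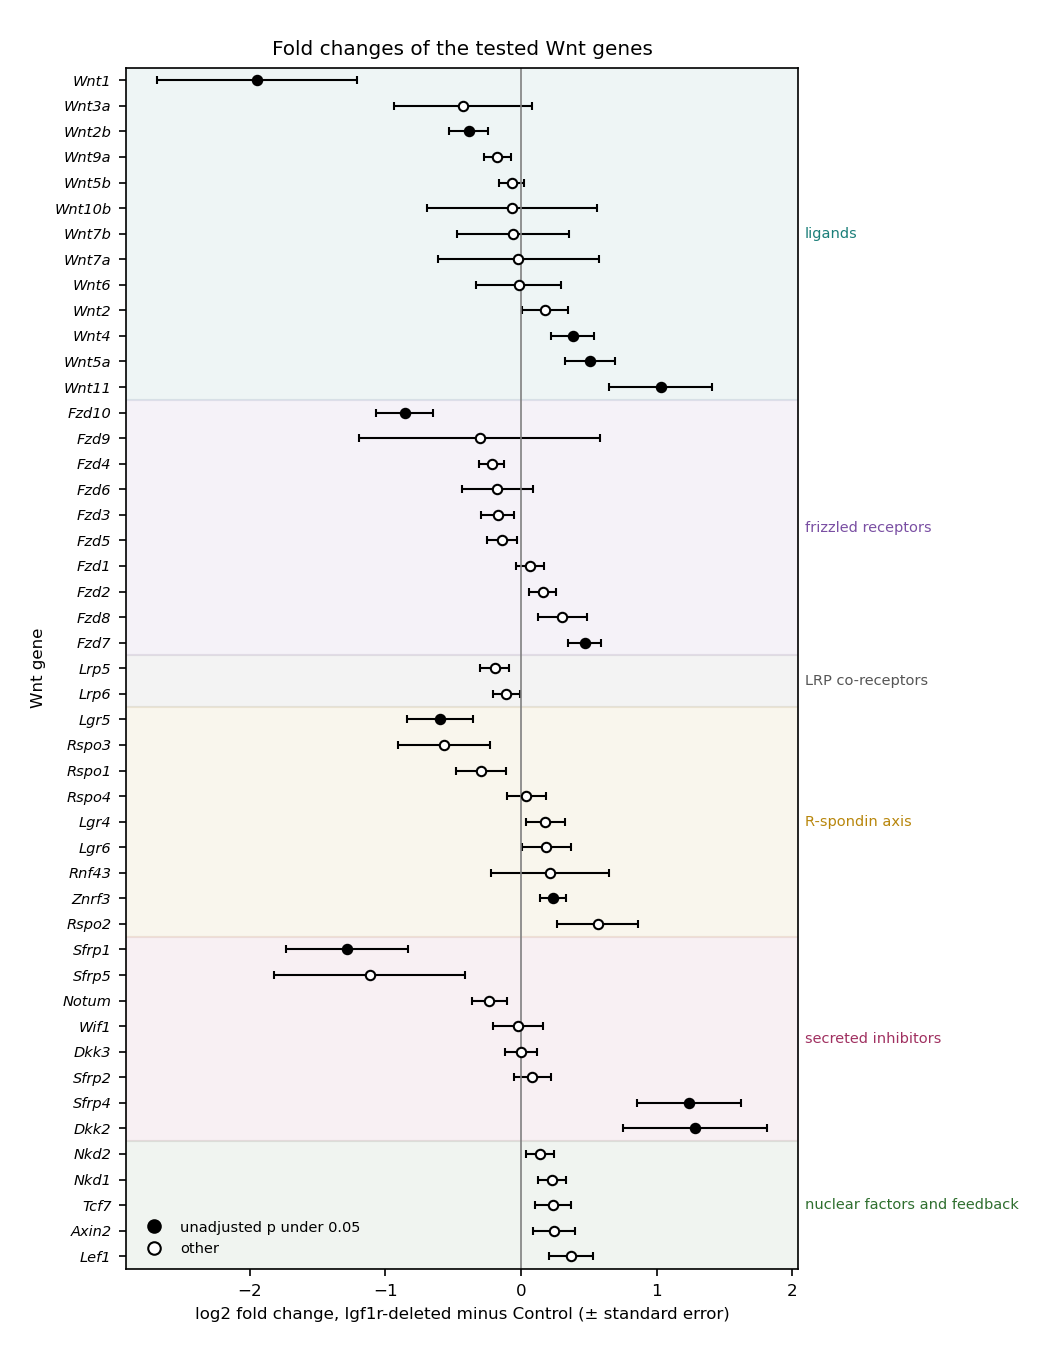
Log2 fold change, Igf1r-deleted over control, of the 47 genes tested, grouped by role, with bars of 1 SE from edgeR. The 5 nuclear and feedback genes all lie to the right of 0, which held under each scaling, while ligands and secreted inhibitors lie on both sides and their split of higher and lower genes turns with library totals.

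The R-spondins, LGR receptors and the ligases they act on had 9 genes tested. At an unadjusted p under 0.05, 1 was higher and 1 lower, beside 5.65% and 6.75% of all genes tested. Znrf3 (chr11:5276324-5444847, minus strand), a β-catenin target that removes frizzleds from the surface, was measured at 63.4 and 62.8 CPM in controls and at 72.5, 71.4 and 79.2 CPM in Igf1r-deleted libraries. The controls were nearly the same and all 3 Igf1r-deleted values were above them, with a log2 fold change of 0.24 (SE 0.10, unadjusted p = 0.0421). Rnf43, its relative, was near 1 CPM and overlapped, at 1.09 and 1.42 CPM in controls and 1.36, 2.09 and 0.918 CPM in Igf1r-deleted libraries. Lgr5 (chr10:115450311-115587780, minus strand), the R-spondin receptor known from intestinal stem cells, was low in all libraries, at 5.99 and 4.56 CPM in controls and 4.05, 3.34 and 3.06 CPM in Igf1r-deleted libraries. No value overlapped between groups. For Lgr5 the log2 fold change was −0.60 (SE 0.24, unadjusted p = 0.0411) and −0.39 without control replicate 1.

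Rspo2, the R-spondin needed for lung branching, was measured at 37.7 and 45.6 CPM in controls and at 37.8, 62.9 and 84.0 CPM in Igf1r-deleted libraries. Igf1r-deleted replicate 1 lay between the controls and the other 2 were above all, as for Wnt11. For Rspo2 the log2 fold change was 0.57 (SE 0.30, unadjusted p = 0.0988), and 0.27 without Igf1r-deleted replicate 3. Rspo4, the R-spondin with the highest level per kb, was at 24.1 and 32.9 CPM in controls and 28.6, 29.0 and 30.2 CPM in Igf1r-deleted libraries, all within the range of the controls. Of the 9 genes, 6 were higher and 3 lower under each scaling, and the others, Rspo1, Rspo3, Lgr4 and Lgr6, had log2 fold changes of −0.57 to 0.19. The summed level was 43.6 and 47.9 CPM per kb in controls and 42.7, 51.2 and 58.1 CPM per kb in Igf1r-deleted libraries, which overlapped.

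Of the 10 secreted inhibitors 8 were tested. At an unadjusted p under 0.05, 2 were higher and 1 lower, beside 5.65% and 6.75% of all genes tested. Sfrp1 (chr8:23411502-23449632, plus strand), a soluble frizzled-like antagonist, was measured at 335 and 103 CPM in controls and at 122, 70.0 and 78.4 CPM in Igf1r-deleted libraries. Control replicate 1 had 3.25 times the level of control replicate 2, which itself lay among the Igf1r-deleted values. The log2 fold change of Sfrp1 was −1.28 (SE 0.45, unadjusted p = 0.0234), −0.20 without control replicate 1 and −1.91 without control replicate 2, so its size rested on 1 library. Sfrp4, of the same family (chr13:19623104-19632994, plus strand), was low and stood at 1.24 and 1.42 CPM in controls and 1.90, 3.72 and 3.78 CPM in Igf1r-deleted libraries. All 3 were above both controls, with a log2 fold change of 1.24 (SE 0.39, unadjusted p = 0.0141) and a range of 1.08 to 1.49 when each library was left out. Sfrp2 did not separate the groups, at 61.4 and 58.4 CPM in controls and 55.9, 60.3 and 74.4 CPM in Igf1r-deleted libraries.

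Dkk2, an LRP antagonist that can also act as a weak agonist, had 12 and 35 counts in controls and 38, 74 and 66 counts in Igf1r-deleted libraries, which is 0.346 and 0.955 CPM and 1.08, 1.86 and 1.84 CPM. Control replicate 1 was by far the lowest, and control replicate 2 was just under Igf1r-deleted replicate 1. The log2 fold change of Dkk2 was 1.28 (SE 0.53, unadjusted p = 0.0457), 0.73 without control replicate 1 and 2.18 without control replicate 2. Dkk3 was measured at 890 and 982 CPM in controls and at 971, 862 and 974 CPM in Igf1r-deleted libraries, fully overlapping. Its log2 fold change was −0.00090 (SE 0.12), and positive with library totals or upper-quartile factors.

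Wif1, which binds Wnts directly, was at 30.7 and 37.0 CPM in controls and 32.8, 26.6 and 40.7 CPM in Igf1r-deleted libraries, with a log2 fold change of −0.02 (SE 0.18) that was positive with library totals. Notum, the Wnt lipid hydrolase and a β-catenin target, was at 31.1 and 24.9 CPM in controls and 25.4, 22.8 and 23.3 CPM in Igf1r-deleted libraries. Igf1r-deleted replicate 1 lay between the controls, and the log2 fold change was −0.23 (SE 0.13, unadjusted p = 0.108), −0.070 without control replicate 1 and −0.39 without the other control. Annotated genes on the other strand overlap 38.1% of the exonic bases of Notum and 16.1% of those of Sfrp2. Of the 8 inhibitors 3 were higher and 5 lower, but 5 and 3 with library totals and 4 and 4 with upper-quartile factors. Dkk3 was placed in this group by its family name, so the summed level of the group is no measure of Wnt inhibition. It alone took 66.8% and 79.1% of that level per kb in controls and 78.6%, 79.6% and 78.2% in Igf1r-deleted libraries. Sfrp1 took 19.3% and 6.39% in controls and 7.58%, 4.97% and 4.84% in Igf1r-deleted libraries.

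The 5 nuclear factors and feedback genes were all higher in Igf1r-deleted libraries, under each scaling and with each library left out. None had an unadjusted p under 0.05 (0 of 5), and their median log2 fold change was 0.24, beside 0.01 over all genes tested. Genes named here as β-catenin targets but placed in other groups went both ways. By log2 fold change Znrf3 was higher (0.24), and Notum (−0.23), Bambi (−0.29) and Myc (−0.92) were lower. Axin2, the standard β-catenin target and a negative regulator of the pathway (chr11:108920349-108950783, plus strand), was measured at 109 and 90.4 CPM in controls and at 99.3, 118 and 136 CPM in Igf1r-deleted libraries. Igf1r-deleted replicate 1 lay between the controls, with means of 99.5 ± 12.8 (SD, n = 2) and 118 ± 18.2 CPM (SD, n = 3). Axin2 had a log2 fold change of 0.24 (SE 0.15, unadjusted p = 0.154), which came to 0.11 when control replicate 2 was left out, to 0.13 when Igf1r-deleted replicate 3 was and to 0.38 when control replicate 1 was. Lef1, a DNA-binding partner of β-catenin and itself a target, was at 11.4 and 12.9 CPM in controls and 13.2, 16.9 and 17.1 CPM in Igf1r-deleted libraries. These did not overlap, by a small margin for replicate 1, and the log2 fold change was 0.37 (SE 0.16, unadjusted p = 0.0568).

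Nkd1, an intracellular antagonist induced by the pathway, was measured at 104 and 116 CPM in controls and at 129, 136 and 120 CPM in Igf1r-deleted libraries, without overlap and with a log2 fold change of 0.23 (SE 0.11, unadjusted p = 0.0673), or 0.14 without control replicate 1. Its paralog Nkd2 was at 26.1 and 25.3 CPM in controls and 29.5, 26.4 and 29.3 CPM in Igf1r-deleted libraries, also without overlap though replicate 2 nearly met the controls, with a log2 fold change of 0.14 (SE 0.10, unadjusted p = 0.211). Tcf7, the second DNA-binding partner listed, was at 48.1 and 62.9 CPM in controls and 62.3, 68.5 and 65.1 CPM in Igf1r-deleted libraries. Only control replicate 1 stood clearly lower, and the log2 fold change of 0.24 (SE 0.13, unadjusted p = 0.117) was 0.05 without it and 0.43 without the other control. Scaling to library totals put Lef1 and Nkd1 under an unadjusted p of 0.05. The summed level of the 5 genes was 67.5 and 72.5 CPM per kb in controls and 77.7, 84.9 and 83.8 CPM per kb in Igf1r-deleted libraries, which did not overlap.

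**Figure D4:**
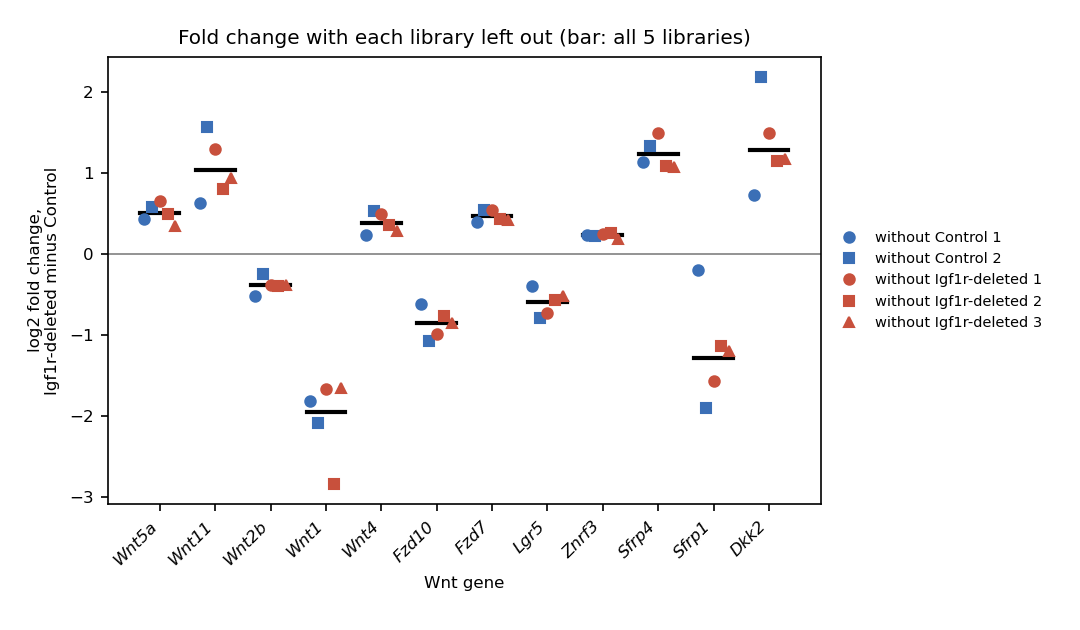
Log2 fold change, Igf1r-deleted over control, of the 12 genes with an unadjusted p under 0.05 with all 5 libraries and after removal of any 1 of them. The values for Fzd7 (0.39 to 0.54) and Znrf3 (0.19 to 0.26) lie close together, whereas those of Sfrp1 reach from −1.91 to −0.20 and those of Dkk2 from 0.73 to 2.18, and no gene changes side.

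A list of 84 other genes of the pathway was examined in the same fit: secretion and modification of Wnts, other receptors, the destruction complex, β-catenin cofactors, polarity genes and targets. Of the 81 tested, 11 had an unadjusted p under 0.05 (13.6%, beside 12.4% of all genes), 8 higher and 3 lower, and 0 passed adjustment by edgeR, with a median log2 fold change of 0.05. The count was 17 without Igf1r-deleted replicate 1, 5 without replicate 2 and 3 without replicate 3, and that of all genes moved the same way, as given above. The genotypes did not overlap for 29 of 81 (35.8%, beside 31.0%).

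The core polarity genes on this list, grouped after their values were seen, were Vangl1, Vangl2, Prickle1, Prickle2, Celsr1, Celsr2 and Celsr3, which place proteins along the plane of a tissue. Of these 7, 3 were higher and 0 lower at an unadjusted p under 0.05, beside 5.65% and 6.75% of all genes tested. By direction alone, 4 were higher and 3 lower. Because the group was formed after the values were seen, these counts are a description only. By log2 fold change, Prickle2 stood at 0.19 with overlap, Celsr1 at −0.46 and Celsr3 at −0.52 without overlap and with low levels, and Celsr2 at −0.04. Prickle1 was measured at 79.6 and 90.9 CPM in controls and at 100, 122 and 129 CPM in Igf1r-deleted libraries, without overlap and with a log2 fold change of 0.46 (SE 0.13, unadjusted p = 0.0111). Vangl2 was at 17.5 and 25.9 CPM in controls and 28.6, 30.6 and 27.2 CPM in Igf1r-deleted libraries, with a log2 fold change of 0.41 (unadjusted p = 0.0468) that came to 0.15 without control replicate 1, the lowest library, and to 0.71 without the other control. For Vangl1 the values were 21.5 and 24.2 CPM in controls and 25.4, 30.2 and 30.6 CPM in Igf1r-deleted libraries, a log2 fold change of 0.33 (unadjusted p = 0.033). Dvl1, which relays frizzled signals in both branches, stood at 32.4 and 31.0 CPM in controls and 36.5, 40.7 and 45.5 CPM in Igf1r-deleted libraries, without overlap, a log2 fold change of 0.37 (unadjusted p = 0.0173). The other higher ones were Nfatc4 (log2 fold change 0.33), Dact3 (0.34, and 0.20 without control replicate 1), Daam2 (0.40, and 0.25 without Igf1r-deleted replicate 2) and Ndp, which encodes Norrin (0.67, with overlap, 0.36 without control replicate 1 and 1.03 without control replicate 2).

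Myc, a growth factor-responsive transcription factor and a β-catenin target in some tissues, was lower, at 60.1 and 35.7 CPM in controls and 32.4, 20.9 and 22.7 CPM in Igf1r-deleted libraries. All Igf1r-deleted values were below both controls, and control replicate 1 was far above the rest. The log2 fold change of Myc was −0.92 (SE 0.26, unadjusted p = 0.00832) and −0.50 without control replicate 1. Bambi, a TGF-β pseudoreceptor induced by β-catenin, was at 63.6 and 58.4 CPM in controls and 53.6, 47.0 and 49.0 CPM in Igf1r-deleted libraries, without overlap and with a log2 fold change of −0.29 (unadjusted p = 0.0248). Camk2d, the third lower gene, overlapped between groups, with a log2 fold change of −0.37 that was −0.16 without control replicate 1 and −0.56 without the other control. Ctnnb1, which encodes β-catenin, was measured at 688 and 775 CPM in controls and at 806, 799 and 759 CPM in Igf1r-deleted libraries, where replicate 3 lay below control replicate 2, with a log2 fold change of 0.11 and 14.6% of its exonic bases shared with Ulk4 on the other strand. The Wnt export gene Wls was close to 0 (log2 fold change −0.04).

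**Figure D5:**
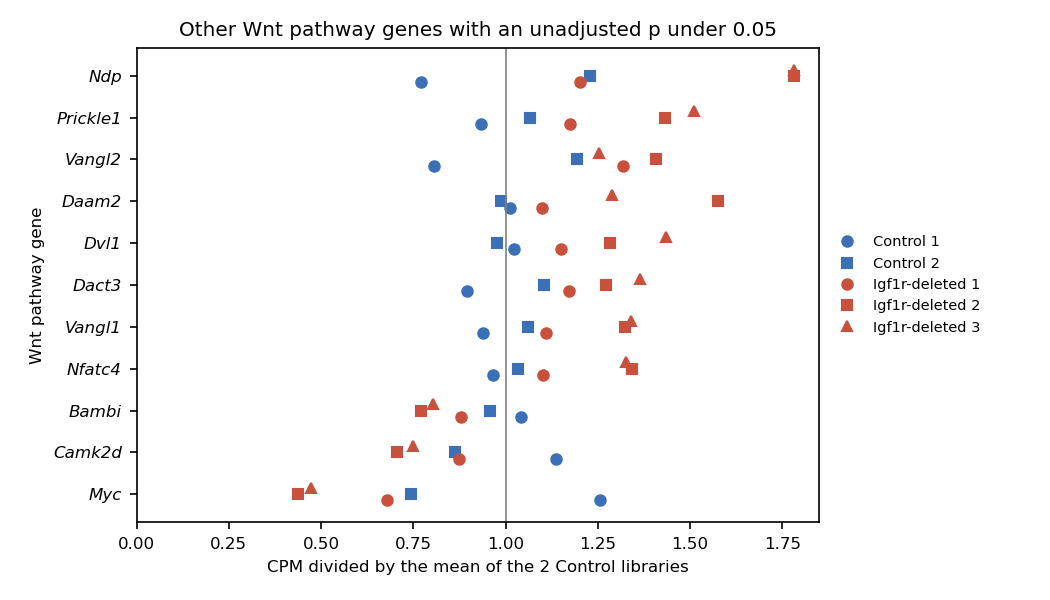
Level of the 11 other pathway genes with an unadjusted p under 0.05 in each of the 2 control and 3 Igf1r-deleted libraries, where points are libraries. Camk2d and Ndp overlap between the groups, and for Myc control replicate 1 stands far above the other libraries.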

How the data were processed

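RNA was measured in 5 libraries, 2 control and 3 Igf1r-deleted, grouped by the genotype in the labels. The authors made libraries with a NEBNext Ultra kit, used Trim Galore for trimming, Bowtie2 for alignment to mm10 and GenomicAlignments for counting, and DESeq and Cufflinks for their own tests and FPKM. The deposited values are raw counts, with no normalization. The sources used here do not give alignment settings, the annotation or whether counting used strand.

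Genotype alone was modelled in edgeR 4.0.16 under R 4.3.3 with limma 3.58.1, with TMM factors, filterByExpr by genotype and a two-sided quasi-likelihood F test, and p-values of the 15298 genes that passed were adjusted by Benjamini-Hochberg. CPM used TMM-scaled library sizes. A prior count of 2 was used only for the log2 CPM behind the replicate correlations and the Xist covariate, and fold changes were fitted with edgeR's defaults. The fit was tested on simulated data at this design. Of genes changed by a log2 of 1, 96% were called, and 100% of those changed by 2, among 15085 genes with 14 false calls. The simulation gave every gene the same fixed dispersion, not the estimated ones, and changed only genes above a set CPM. These shares are therefore not the power for the real libraries. There, Igf1r at a log2 fold change of −0.93 had an adjusted p of 0.354 in edgeR. Named with per-library values were the genes with an unadjusted p under 0.05, the 3 with the highest level per kb in each role group, and the 11 listed singly in the rule, and of the other pathway genes those with an unadjusted p under 0.05. Ctnnb1, Wls, Fzd4, Prickle2 and the Celsr genes were added after their values were seen. The gene set, the lists, the tests and the alternatives were chosen with earlier results of these data known.

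The alternatives were DESeq2 1.42.0, 3 other scalings, a looser filter (1 count in any library), a stricter one (10 counts in every library), leaving out each library, a replicate block, limma voom and a covariate for Xist. Gene positions, exon lengths and overlaps came from GENCODE M21 on mm10, where all 55 genes matched, and lengths were known for 14508 of the genes tested. Promoters came from RefSeq on GRCm38.p6. Intervals and floors cover counting error only.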

Additional observations from a re-analysis of the deposited data

How the results depend on the processing

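Over 40 named genes and 9 alternatives of the processing, 354 of 359 log2 fold changes kept their direction, and 192 of 200 with a library left out. The count of genes with an unadjusted p under 0.05, 12, was 6 with Xist as a covariate and 4 to 18 with an Igf1r-deleted library left out. The count after adjustment, 0, was 2 with DESeq2 (Fzd7 and Fzd10), which gave no adjusted p for 3563 genes. The count without overlap, 18, was 20 to 33 with a library left out, where fewer libraries need to separate. The count of other pathway genes, 11, was 3 to 17 with an Igf1r-deleted library left out. The median log2 fold change of the 47 genes, −0.018, was 0.062 with library totals, 0.049 with Xist and −0.062 to 0.081 with a library left out. Igf1r was at −0.94 with DESeq2. Directions turned for Dkk3 (0.070 with library totals, 0.0080 with upper-quartile factors, 0.0013 without a filter, −0.076 to 0.061 with a library left out), Wif1 (0.049 with library totals, −0.19 to 0.11), Sfrp2 (−0.048 to 0.16 with a library left out), Rnf43 (−0.15 to 0.45), Rspo4 (−0.17 to 0.27) and Wnt2 (−0.092 to 0.49). Other causes were not tested. The replicate numbers are shared between genotypes, but no source ties them to a litter or batch. The deviations of same-numbered libraries correlated at 0.21 for number 1 and 0.12 for number 2. Those of control replicate 2 and Igf1r-deleted replicate 3, of unlike number, also correlated at 0.12. With 2 controls, the deviations of each mirror those of the other, so these values are not independent and cannot show pairing. With the replicate number as a block, 136 of all genes (0.889%) passed adjustment, with Wnt11 as the only one of the 47 (1, adjusted p = 0.0139, range over alternatives 0.0139 to 0.404), 11 were at an unadjusted p under 0.05, the median was 0.031, Igf1r was at −1.04 and Sfrp2 at −0.045.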
